A study of Mus musculus with 26 samples.

Results

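The genes described here encode the enzymes that modify foreign and endogenous small molecules: cytochrome P450 families 1 to 4, UDP-glucuronosyltransferases of the UGT1A and UGT2 groups, glutathione S-transferases and cytosolic sulfotransferases. They were taken by name from the protein-coding entries of 3 count tables, which gave 147 genes (144 distinct symbols) among 40481 in each mouse table and 86 among 55093 in the human table. The study deleted or knocked down Fgfr1op, which encodes FOP, a protein of the centrosome and of the base of cilia, and measured RNA by sequencing. A filter on low counts left 68 of the 147 genes for testing in mouse spheroids, 93 of 147 in mouse crypts and 44 of 86 in Caco-2. The others were too low to test, and 26, 16 and 4 of them had no count in any library of those tables.

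The groups were these. Fgfr1op KO spheroids were compared with wild-type spheroids, 4 mice each, both labelled day 3 after hydroxytamoxifen, which was given at 250 nM. Spheroids are epithelial cultures that were grown from small intestinal crypts in a gel and kept in L-WRN medium, which carries stem cell growth factors. Fgfr1op KO crypts were compared with wild-type crypts, both collected after tamoxifen, at day 6 (3 mice each) and day 9 (3 mice each), from fractions of small intestine enriched for crypts. The crypt columns give the genotype but not the day, so both days were pooled as 6 KO against 6 wild-type libraries, lettered a to f as names only. Caco-2 cells with an inducible hairpin against Fgfr1op (shFgfr1op) were compared with Caco-2 cells with a non-targeting hairpin (scramble), 3 samples each, all at day 3 of doxycycline. Caco-2 is a human colorectal adenocarcinoma line that takes on enterocyte-like features. One hairpin was used. The labels leave it unsaid whether the Caco-2 replicates were grown separately, and their p-values rest on a spread that may be technical. The labels name no recombinase driver, strain or age of the mice.

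Foreign compounds are usually handled in steps. P450 enzymes oxidise them with electrons from P450 reductase. UGT enzymes, sulfotransferases and glutathione S-transferases then attach glucuronic acid, sulfate or glutathione, and transporters carry the products out. In the small intestine these enzymes are mainly made by absorptive enterocytes. Their genes are controlled by receptors such as AHR, PXR (Nr1i2), CAR (Nr1i3) and PPARA, and by NRF2 (Nfe2l2), which responds to electrophiles and oxidants.

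The crypt comparison held the widest differences among these genes, so the promoter windows of 5 of them are shown first. Gsta1, Gsta2 and Gsta3 stand for the alpha-class glutathione transferases that rose in KO crypts. Ugt1a1 and Cyp2j9 stand for the genes that fell and passed the test with and without the 3 KO libraries described below. The Ugt1a1 window holds neither core. Each window is 300 bases, from 250 before to 50 after the annotated start in RefSeq (build GRCm38.p6), written 5′ to 3′ on the gene's strand. Capitals mark the core of a xenobiotic response element, GCGTG, or of an antioxidant response element, TGACNNNGC, found on either strand. The coordinates are chr9:78230419-78230718 (+) for Gsta1, chr9:78347096-78347395 (-) for Gsta2, chr1:21240335-21240634 (+) for Gsta3, chr1:88211709-88212008 (+) for Ugt1a1 and chr4:96591436-96591735 (-) for Cyp2j9.
Gsta1: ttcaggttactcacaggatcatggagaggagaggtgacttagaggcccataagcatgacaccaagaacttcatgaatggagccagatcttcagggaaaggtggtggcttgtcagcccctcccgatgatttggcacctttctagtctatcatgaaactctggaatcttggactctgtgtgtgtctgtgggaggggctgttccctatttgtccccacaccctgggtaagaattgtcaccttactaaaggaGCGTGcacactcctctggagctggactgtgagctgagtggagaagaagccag
Gsta2: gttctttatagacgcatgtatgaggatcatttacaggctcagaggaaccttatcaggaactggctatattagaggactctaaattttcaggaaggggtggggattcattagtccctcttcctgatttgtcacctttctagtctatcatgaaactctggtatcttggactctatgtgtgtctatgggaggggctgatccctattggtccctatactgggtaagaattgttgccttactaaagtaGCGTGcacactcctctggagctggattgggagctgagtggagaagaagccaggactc
Gsta3: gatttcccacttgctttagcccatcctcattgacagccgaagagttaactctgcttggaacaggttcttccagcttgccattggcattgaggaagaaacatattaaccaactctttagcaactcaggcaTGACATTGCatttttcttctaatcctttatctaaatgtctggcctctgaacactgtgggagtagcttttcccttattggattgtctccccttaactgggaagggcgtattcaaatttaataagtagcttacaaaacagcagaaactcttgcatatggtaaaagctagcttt
Ugt1a1: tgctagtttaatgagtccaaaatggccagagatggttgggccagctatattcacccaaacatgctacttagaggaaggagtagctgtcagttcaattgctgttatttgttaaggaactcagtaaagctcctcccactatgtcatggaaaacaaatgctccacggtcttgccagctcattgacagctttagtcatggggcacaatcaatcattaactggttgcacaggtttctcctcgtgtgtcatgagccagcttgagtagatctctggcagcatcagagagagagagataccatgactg
Cyp2j9: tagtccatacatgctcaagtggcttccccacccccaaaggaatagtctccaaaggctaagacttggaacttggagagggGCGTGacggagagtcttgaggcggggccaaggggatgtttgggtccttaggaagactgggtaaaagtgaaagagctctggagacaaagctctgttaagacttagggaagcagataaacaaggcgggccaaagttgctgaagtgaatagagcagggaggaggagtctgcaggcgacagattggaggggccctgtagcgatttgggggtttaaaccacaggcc

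The Gsta1 and Gsta2 windows were identical at 238 of 300 positions in a global alignment (79.3%) and shared an unbroken run of 29 bases. Of the 144 mouse symbols, 122 had a window, and Gsta4 had none. A gene with several windows was counted where any of them held the core. GCGTG on either strand was found for 21.3% of these 122 genes, against 35.2% of all 27025 genes with a window. TGACNNNGC was found for 8.2% of the 122 genes, against 14% of all. These are counts of letters in a window and say nothing about binding.

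Depth and identity checks were as follows. Total counts per library were 44152608 to 67630241 in spheroids, 48068740 to 103352863 in crypts and 37281821 to 50965004 in Caco-2. Levels are given as CPM, the usual depth-scaled count, here on TMM-adjusted library totals. Fgfr1op was 36.1% lower in KO crypts, at 21.1 ± 5.22 CPM in KO and 32.9 ± 6.27 CPM in wild type (SD, n = 6 each), with a log2 fold change of -0.65 ± 0.19 (SE) and an adjusted p of 0.0261 by edgeR's quasi-likelihood test with Benjamini-Hochberg adjustment. The groups overlapped, with 11.7 to 25.9 CPM in KO crypts and 25.2 to 39.0 CPM in wild-type crypts. In spheroids it was 25.1% lower (adjusted p = 0.117, edgeR) and in Caco-2 56.5% lower (adjusted p = 1.65e-14, edgeR). Crypt libraries carried markers of enterocytes, Paneth cells and goblet cells at high levels, and spheroids carried stem cell markers at a summed 549 to 617 CPM in KO and 558 to 611 CPM in wild type, where the enterocyte list summed to 594 to 1046 CPM in KO and 645 to 1267 CPM in wild type. The immune cell list summed to 21.6 to 45.0 CPM in KO spheroids and 22.9 to 48.4 CPM in wild-type spheroids. The stromal cell list summed to 2.20 to 3.58 CPM in KO and 2.12 to 3.42 CPM in wild type. Within these lists Cd3g, Nkg7, Gzma and Lum had no count in any spheroid library, while others were detected. Caco-2 cells also carried hepatocyte markers such as ALB.

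Libraries stood apart in both mouse tables. In crypts the KO libraries d, e and f had first principal component scores of 101.72, 124.28 and 106.66, against -19.22 to 5.16 in the other 3 KO libraries and -64.44 to -37.32 in the wild-type libraries. The component held 56.0% of the variance. These 3 libraries are the KO columns with running numbers 4 to 6. Whether they are those of one day cannot be told, because the columns do not show the day. The labels do not tie the numbers to days. In spheroids wild-type replicate 1 stood apart at 46.65, against -32.37 to 15.09 in the other 7 libraries, and it was the only spheroid library with a high Xist count (18489, against 0 to 6 in the others). One KO and one wild-type crypt library had low Xist counts (5 and 12) and the other 10 had 3141 to 10511. Where an enzyme gene described below lost its call without KO libraries d, e and f, its adjusted p without these 3 is given.

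In KO crypts more of the enzyme genes that passed the test were lower than higher, and one family was higher. Of 93 genes tested, 35 fell (37.6%) and 6 rose (6.45%), together 41 (44.1%), where over all 16413 genes tested 10.5% fell, 14% rose and 24.5% changed. The median log2 fold change of the 93 genes was -1.13, against 0.05 over all genes. The 6 that rose were the 4 alpha-class glutathione transferases Gsta1 to Gsta4, together with Cyp4f18 and Sult4a1. In 17 genes (18.3% of 93) every KO library was below every wild-type library, against 5.71% of all genes tested, and in no gene of the families did every KO library lie above, against 4.9% of all genes. These counts depended on the 3 KO libraries that stand apart: without them 11 of 98 genes tested were called (11.2%), all lower, against 5.46% of all genes called and 2.74% called lower. Of these 11, 10 were among the 41, and the median log2 fold change over the families was -0.63. The 11th was Ugt2a3, which failed the test in the full comparison. Less RNA per cell and fewer cells of a type cannot be told apart in these bulk samples.

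**Figure D1:**
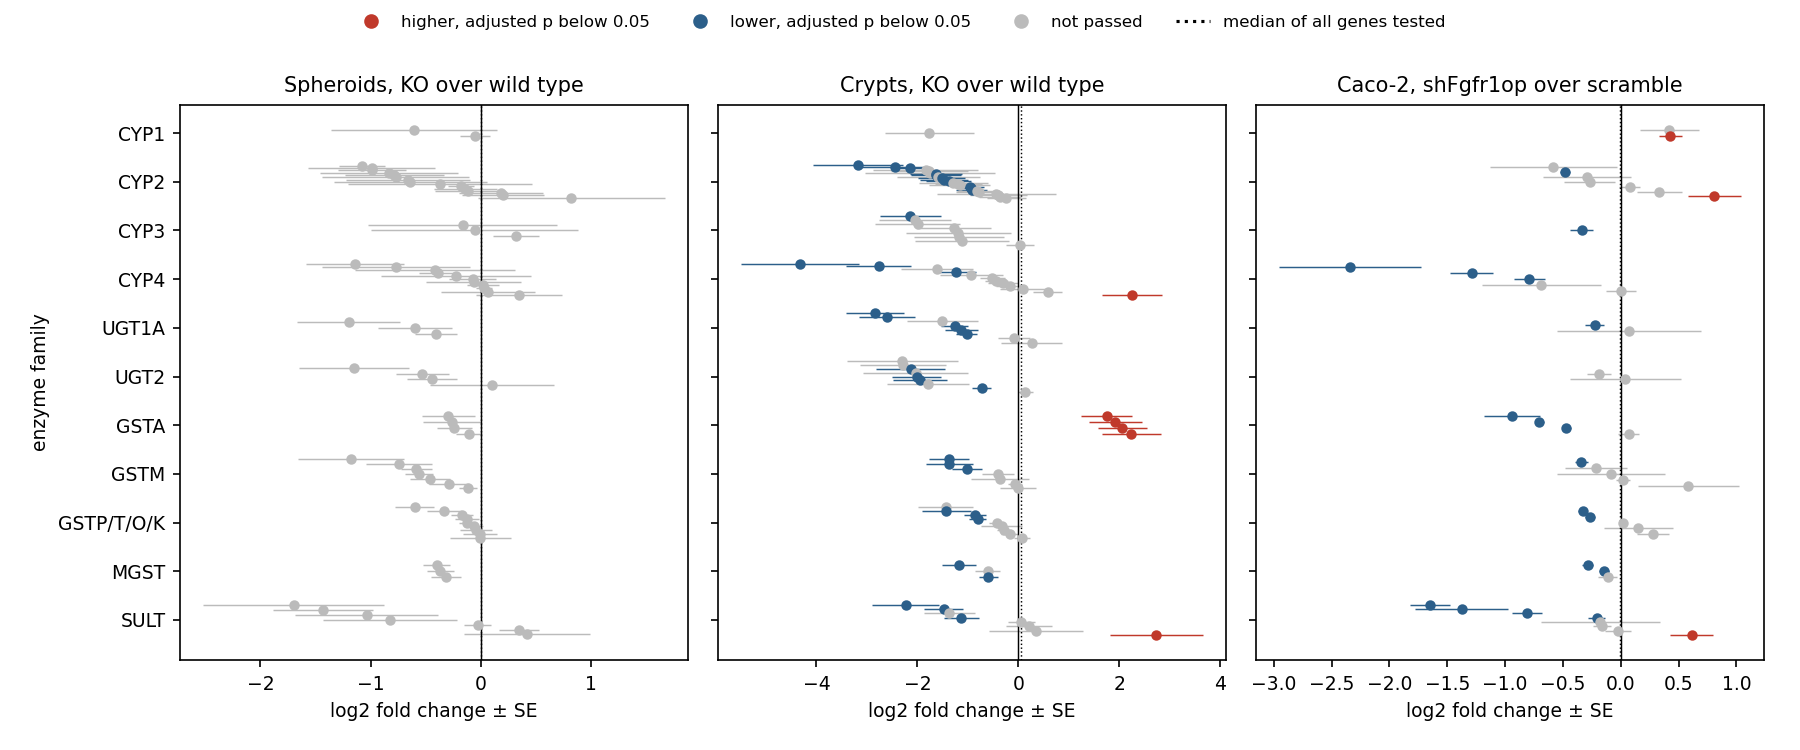
Log2 fold change with its SE for each enzyme gene tested, by family, in spheroids, crypts and Caco-2 (the axes differ in range). The GSTA family lies wholly to the right in crypts and mostly to the left in Caco-2, and no gene passed the test in spheroids.

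The alpha-class glutathione transferases, which conjugate glutathione to electrophiles and to products of lipid peroxidation, were the one family in which every member rose. Gsta1 had 476 to 2189 CPM in KO crypts with a median of 1382, against 71.5 to 806 CPM with a median of 263 in wild-type crypts. The log2 fold change was 1.92 ± 0.53 (adjusted p = 0.0221, edgeR). The KO libraries d, e and f had 2189, 1596 and 1843 CPM. Libraries a and b had 737 and 476 CPM, within the wild-type range, and c had 1168 CPM, above it. Per kilobase of exon, Gsta1 was the most abundant of all the enzyme genes in KO crypts, at a mean of 1396 CPM per kb, and the fifth in wild-type crypts, at 368 CPM per kb. The genes above it in wild type were Mgst3 at 634, Gstm3 at 566, Gstp1 at 469 and Mgst1 at 381 CPM per kb.

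Gsta2 had 8.59 to 36.9 CPM in KO crypts (median 20.1), against 0.76 to 10.9 CPM in wild-type crypts (median 3.08), a log2 fold change of 2.24 ± 0.58 (adjusted p = 0.0173, edgeR). Gsta3 had 19.5 to 70.2 CPM in KO crypts (median 39.3), against 3.5 to 23.2 CPM in wild-type crypts (median 8.20), a log2 fold change of 2.06 ± 0.48 (adjusted p = 0.0109, edgeR). Gsta4, the form most active toward 4-hydroxynonenal, had 124 to 586 CPM in KO crypts (median 405), against 45.2 to 243 CPM in wild-type crypts (median 80.3), a log2 fold change of 1.75 ± 0.50 (adjusted p = 0.0248, edgeR). In all 4 genes the groups overlapped, and libraries d, e and f held the 3 highest values. Without those 3 libraries the log2 fold changes were 1.18, 1.3, 1.14 and 0.78 for Gsta1 to Gsta4, with adjusted p of 0.309, 0.256, 0.176 and 0.410 (edgeR), so none passed. The longest reading frames of Gsta1 and Gsta2 were identical at 97.6% of bases, so reads may be shared between this pair, while Gsta3 and Gsta4 were identical to Gsta1 at 77.4% and 71.2%. Summed over the family, the level was 628 to 2882 CPM in KO crypts and 122 to 1083 CPM in wild-type crypts.

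**Figure D2:**
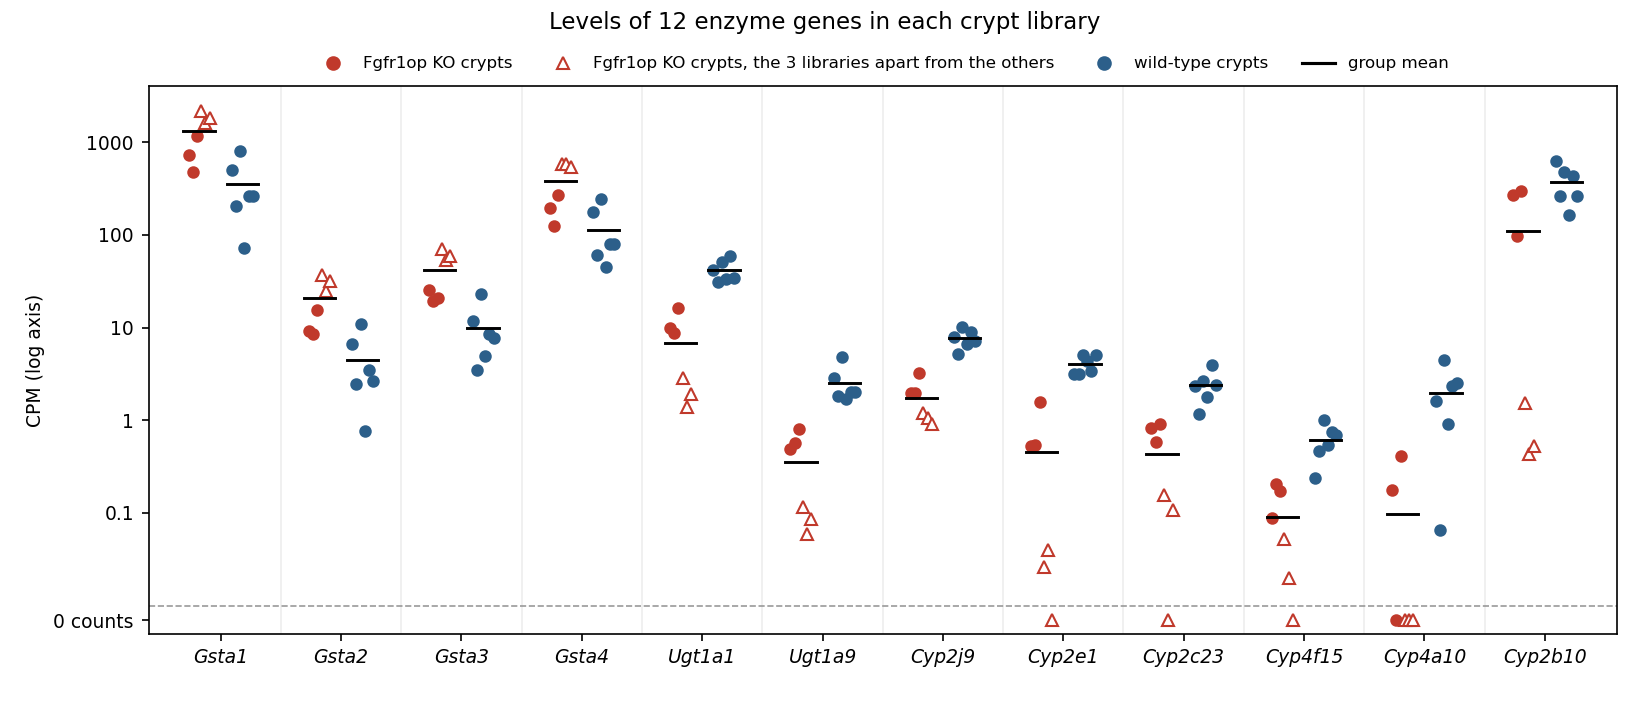
CPM (log axis) of 12 enzyme genes in each crypt library, KO left and wild type right for each gene, with bars at the group mean and open triangles for the 3 KO libraries that stand apart. The triangles are highest for Gsta1 to Gsta4 and lowest for Ugt1a1, Ugt1a9, Cyp2j9, Cyp2e1, Cyp2c23 and Cyp2b10. For Ugt1a1, Ugt1a9, Cyp2j9, Cyp2e1, Cyp2c23 and Cyp4f15 the circles of the KO crypts also lie below all wild-type values.

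The other 2 genes that rose were low. Cyp4f18, a fatty acid omega-hydroxylase known in mouse neutrophils, had 0.186 to 2.76 CPM in KO crypts (median 2.19) and 0.184 to 0.592 CPM in wild-type crypts (median 0.296), a log2 fold change of 2.24 ± 0.60 (adjusted p = 0.0167, edgeR). Sult4a1, a sulfotransferase relative known mainly from brain, had 0.0635 to 1.24 CPM in KO crypts and 0 to 0.184 CPM in wild-type crypts (adjusted p = 0.0451, edgeR). The groups overlapped for both genes, and without the 3 KO libraries their adjusted p were 0.277 and 0.551 (edgeR). The immune cell list summed to 170 to 353 CPM in KO crypts and 334 to 554 CPM in wild-type crypts, and its part in the Cyp4f18 result was not tested.

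The UGT1A genes, which share their last exons and differ in the first, fell in 5 of 8 genes tested. Ugt1a1, the enzyme that conjugates bilirubin, had 1.4 to 16.2 CPM in KO crypts (median 5.82), against 30.8 to 58.7 CPM in wild-type crypts (median 38.2). The log2 fold change was -2.61 ± 0.55 (adjusted p = 0.00719, edgeR) and the groups did not overlap. Ugt1a9, which acts on phenols, had 0.0592 to 0.809 CPM in KO crypts and 1.71 to 4.81 CPM in wild-type crypts, with a log2 fold change of -2.83 ± 0.57 (adjusted p = 0.00522, edgeR). Ugt1a7c had 40.0 to 77.1 CPM in KO crypts and 77.4 to 165 CPM in wild-type crypts (log2 fold change -1.02 ± 0.21, adjusted p = 0.00489, edgeR), and Ugt1a6a, which acts on small planar phenols, had a log2 fold change of -1.26 ± 0.26 (adjusted p = 0.00571, edgeR). These 4 genes also passed without the 3 KO libraries, where the log2 fold changes were -1.84 for Ugt1a1, -2.03 for Ugt1a9, -0.92 for Ugt1a7c and -0.95 for Ugt1a6a. In the annotation the 9 UGT1A genes have 50.3% to 60.6% of their exon bases in common with another of them, so their counts rest on how shared reads were assigned, a step that the labels do not describe.

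Of the UGT2 genes, which conjugate steroids, bile acids and drugs, 4 of 9 tested fell. Ugt2b34 had 182 to 364 CPM in KO crypts and 339 to 606 CPM in wild-type crypts (log2 fold change -0.73 ± 0.19, adjusted p = 0.0161, edgeR), and failed the test without the 3 KO libraries (-0.47, adjusted p = 0.175, edgeR). Ugt2a3 had 63.1, 35.1 and 81.6 CPM in KO libraries a, b and c, 0.935, 0.316 and 0.946 CPM in KO libraries d, e and f, and 92.8 to 235 CPM in wild-type crypts. No KO library reached the wild-type range, yet the adjusted p was 0.147 over 12 libraries and 0.0391 without the 3 (edgeR). Ugt2a2 and Ugt2b1 also fell, at levels of at most 0.605 CPM in any library, and failed the test without the 3 (adjusted p = 0.108 and 0.136, edgeR).

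Among the P450 genes 15 fell and 1 rose of 45 tested, 11 of the 15 in the CYP2 family. Cyp2j9, an epoxygenase of arachidonic acid, had 0.913 to 3.25 CPM in KO crypts (median 1.59) and 5.22 to 10.0 CPM in wild-type crypts (median 7.52), a log2 fold change of -2.14 ± 0.30 (adjusted p = 0.00134, edgeR). It had the smallest p of the 93 genes. Cyp2j6, from the same cluster on chromosome 4, also fell, with 88.8 to 134 CPM in KO crypts and 124 to 272 CPM in wild-type crypts (log2 fold change -0.95 ± 0.20, adjusted p = 0.00638, edgeR), with a coding identity of 83.3% between the pair. Cyp2e1, the ethanol-oxidising P450, had 0 to 1.57 CPM in KO crypts and 3.12 to 5.10 CPM in wild-type crypts (log2 fold change -3.17 ± 0.89, adjusted p = 0.0231, edgeR). Cyp2c23, an arachidonic acid epoxygenase, had 0 to 0.920 CPM in KO crypts and 1.18 to 3.93 CPM in wild-type crypts (log2 fold change -2.45 ± 0.68, adjusted p = 0.0203, edgeR). All 4 passed without the 3 KO libraries, with log2 fold changes of -1.66, -0.91, -2.21 and -1.61.

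Cyp2s1, a P450 of epithelia, had 15.2 to 47.7 CPM in KO crypts and 47.6 to 73.6 CPM in wild-type crypts (log2 fold change -0.95 ± 0.26, adjusted p = 0.0193, edgeR), and gave -0.46 (adjusted p = 0.124, edgeR) without the 3 KO libraries. Cyp2c65, an arachidonic acid oxygenase of the gut, had 59.4 to 185 CPM in KO crypts and 130 to 300.0 CPM in wild-type crypts (log2 fold change -0.92 ± 0.30, adjusted p = 0.0404, edgeR). It was called in 4 of the 12 fits that leave out 1 library, and failed the test without the 3 KO libraries (-0.50, adjusted p = 0.316, edgeR). In the CYP4 family, Cyp4a10, a fatty acid omega-hydroxylase and PPARA target, had no count in 4 of the 6 KO libraries and 0.175 and 0.413 CPM in the others, against 0.0659 to 4.43 CPM in wild-type crypts (adjusted p = 0.0202, edgeR, and 0.158 without the 3 KO libraries). Cyp4f15, an omega-hydroxylase of leukotrienes and fatty acids, had 0 to 0.205 CPM in KO crypts and 0.237 to 0.998 CPM in wild-type crypts (adjusted p = 0.00837, edgeR) and passed without the 3 libraries.

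Several P450 genes with high CPM in wild-type crypts split the KO libraries and failed the test. Cyp2b10, the classical CAR target, had 267, 96.4 and 294 CPM in KO libraries a, b and c, and 1.55, 0.434 and 0.533 CPM in d, e and f, against 163 to 630 CPM in wild-type crypts. The log2 fold change was -1.75 ± 1.29 (adjusted p = 0.342, edgeR). Cyp3a25, a relative of the human drug-metabolising CYP3A4, had 205, 73.8 and 221 CPM in a, b and c, and 13.4, 3.75 and 13.98 CPM in d, e and f, against 204 to 569 CPM in wild-type crypts (adjusted p = 0.105, edgeR). Cyp4v3, a fatty acid omega-hydroxylase, had the same split, with 136 to 241 CPM in a, b and c, 11.8 to 24.5 CPM in d, e and f, and 234 to 544 CPM in wild-type crypts (adjusted p = 0.116, edgeR). Cyp3a13 did not follow it, with 559 to 1280 CPM in KO crypts and 359 to 1232 CPM in wild-type crypts (log2 fold change 0.04 ± 0.28, adjusted p = 0.94, edgeR). Cyp1a1, the standard AHR target, had 0 to 0.952 CPM in KO crypts and 0.311 to 1.52 CPM in wild-type crypts, and failed the test (adjusted p = 0.156, edgeR).

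The glutathione transferases outside the alpha class did not rise. Of 7 GSTM genes 3 fell, of 9 GSTP, GSTT, GSTO and GSTK genes 3 fell, and of 3 microsomal MGST genes 2 fell. Mgst1, a membrane-bound transferase and peroxidase, had 164 to 541 CPM in KO crypts and 547 to 1115 CPM in wild-type crypts, without overlap (log2 fold change -1.17 ± 0.34, adjusted p = 0.0235, edgeR). Gstt3, a theta-class enzyme, had 25.8 to 59.6 CPM in KO crypts and 60.4 to 88.5 CPM in wild-type crypts (log2 fold change -0.86 ± 0.22, adjusted p = 0.0125, edgeR). Gstp3 had 8.91 to 15.7 CPM in KO crypts and 16.8 to 27.2 CPM in wild-type crypts (log2 fold change -0.80 ± 0.17, adjusted p = 0.00609, edgeR), while the abundant pi-class Gstp1 had 639 to 906 CPM in KO crypts and 567 to 986 CPM in wild-type crypts (log2 fold change 0.06 ± 0.16, adjusted p = 0.793, edgeR). Without the 3 KO libraries Mgst1, Gstt3 and Gstp3 failed the test, with log2 fold changes of -0.63, -0.46 and -0.59 (adjusted p = 0.13, 0.122 and 0.0904, edgeR). The mu-class Gstm1 and Gstm3, which are abundant, gave log2 fold changes of -0.01 ± 0.36 and -0.36 ± 0.58 and failed the test, and both turned positive without the 3 KO libraries, at 0.33 and 0.31.

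Of 8 sulfotransferase genes tested 3 fell. Sult1d1, which acts on phenols and catecholamines, had 58.1 to 269.8 CPM in KO crypts and 269 to 547 CPM in wild-type crypts (log2 fold change -1.48 ± 0.38, adjusted p = 0.0158, edgeR), and failed the test without the 3 KO libraries (-0.89, adjusted p = 0.0738, edgeR). Sult1b1, which sulfates thyroid hormones and phenols, had 33.1 to 304 CPM in KO crypts and 242 to 524 CPM in wild-type crypts and failed the test (adjusted p = 0.0679, edgeR). Sult1c2, named here after its values were seen, had 0.247 to 3.77 CPM in KO crypts and 5.17 to 11.2 CPM in wild-type crypts (log2 fold change -2.23 ± 0.66, adjusted p = 0.0282, edgeR) and passed without the 3 KO libraries (adjusted p = 0.0115, edgeR).

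**Figure D3:**
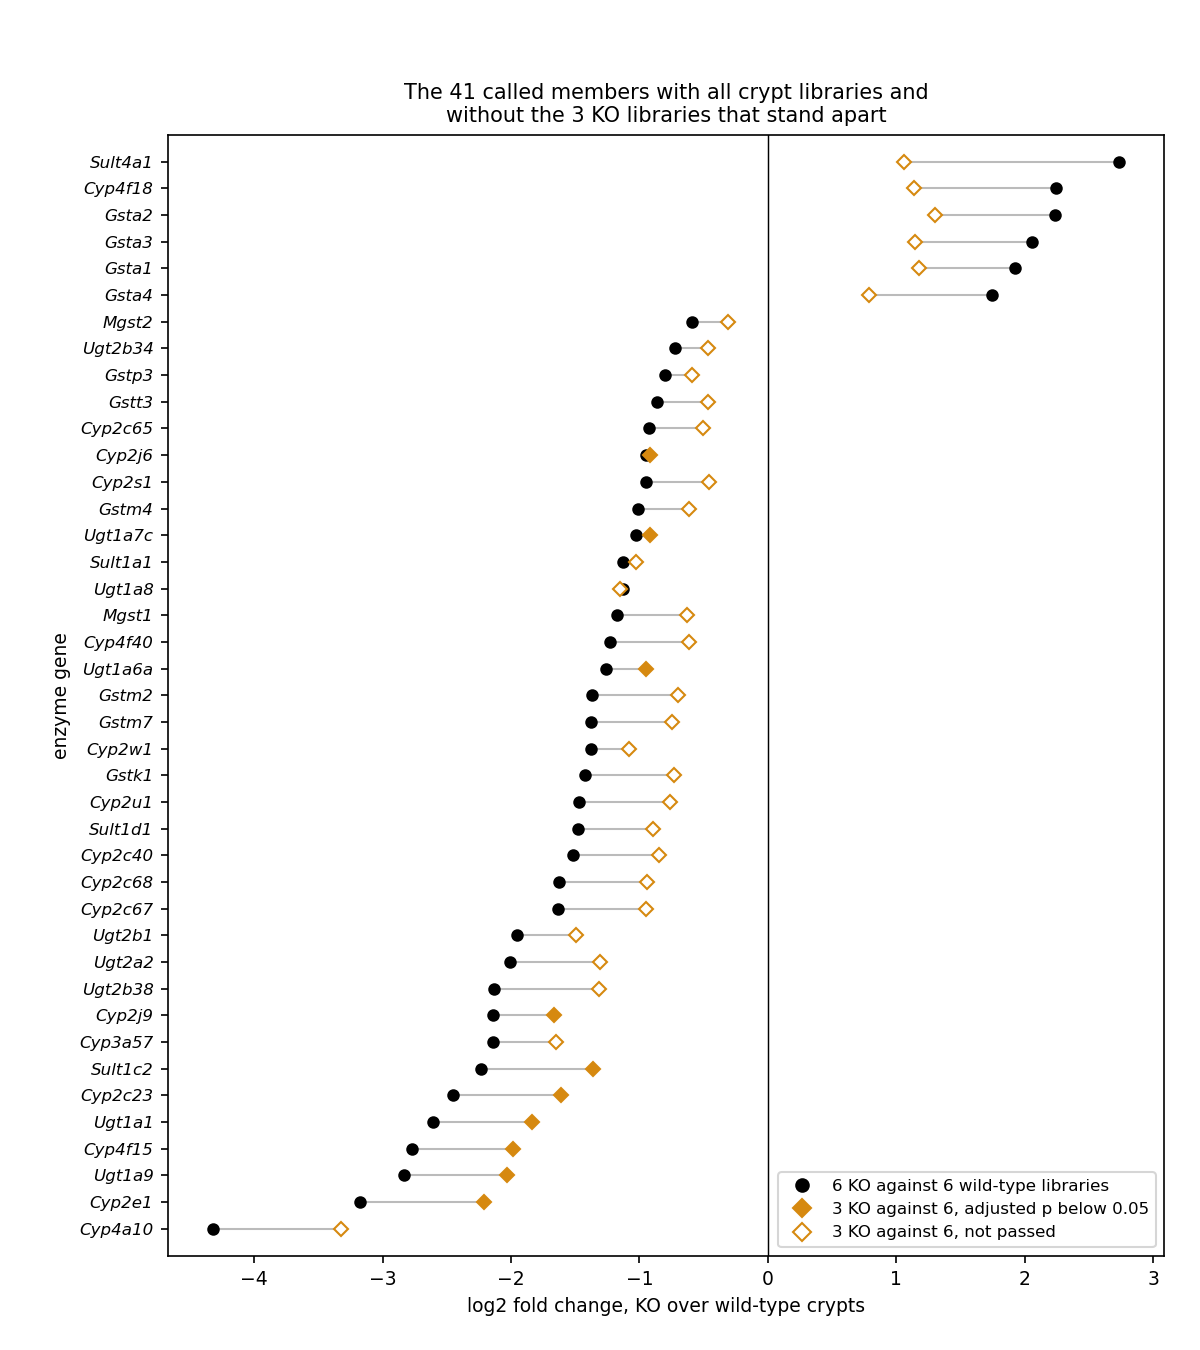
Log2 fold change, KO over wild-type crypts, of the 41 called enzyme genes with all 6 KO libraries (black circles) and without the 3 that stand apart (diamonds, filled where the adjusted p stayed below 0.05). All 41 keep their sign, 10 diamonds are filled, and the diamonds of the 6 genes on the right are all open.

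In KO crypts the enterocyte, stem cell, Paneth cell and tuft cell lists summed lower in libraries d, e and f than in the others. The goblet cell list did not split this way, with 6254, 7007 and 5458 CPM in d, e and f. For this list a, b and c had 7885, 6251 and 6786 CPM, and its 1 called gene of 7 was higher. The enterocyte list summed to 4899 to 37475 CPM in KO crypts and 19631 to 47029 CPM in wild-type crypts, and 3 of its 15 genes fell (Sis, Slc5a1 and Dpp4). Libraries d, e and f had enterocyte sums of 10416, 4899 and 9221 CPM, while a, b and c had 37475, 21010 and 35086 CPM. The stem cell list summed to 104 to 1045 CPM in KO crypts and 923 to 2154 CPM in wild-type crypts. Of its 8 genes 0 were called, and 2 had an unadjusted p under 0.05, 1 of them lower. The Paneth cell list summed to 7693 to 51373 CPM in KO crypts and 33959 to 84292 CPM in wild-type crypts. Of its 8 genes 0 were called, and 3 had an unadjusted p under 0.05. Of 5 tuft cell genes tested 4 fell. Over all crypt genes tested 10.5% fell, and 6259 of 16413 had an unadjusted p under 0.05. The stromal list summed to 5.16 to 67.9 CPM in KO crypts and 4.70 to 48.3 CPM in wild-type crypts. No marker gene was at 0 in every crypt library. The part of cell composition in the enzyme differences was not tested.

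The genes that control and supply these enzymes moved in both directions in KO crypts. Of 26 sensors and regulators 4 rose and 4 fell (30.8% called), a share near the 24.5% called over all genes. Mafg, a partner of NRF2, had 34.9 to 87.3 CPM in KO crypts and 19.6 to 25.9 CPM in wild-type crypts (log2 fold change 1.20 ± 0.23, adjusted p = 0.00368, edgeR). Hnf4g and Nr5a2, nuclear receptors of the gut epithelium, fell (log2 fold changes -0.87 ± 0.20 and -1.0 ± 0.23, adjusted p = 0.00804 and 0.00903, edgeR). The receptor genes themselves, named after their values were seen, gave log2 fold changes of -0.35 ± 0.18 for Ahr, 0.05 ± 0.14 for Nr1i2, -0.54 ± 0.27 for Nr1i3 and -0.15 ± 0.15 for Nfe2l2 and failed the test (adjusted p of 0.174, 0.805, 0.157 and 0.457, edgeR). Ppara, also named after its values were seen, had 5.11 to 29.5 CPM in KO crypts and 38.4 to 75.5 CPM in wild-type crypts, without overlap (log2 fold change -1.56 ± 0.39, adjusted p = 0.0136, edgeR), and passed without the 3 KO libraries (-0.93, adjusted p = 0.0237, edgeR).

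Of 23 genes that supply electrons and cofactors 7 rose (30.4%, against 14% of all genes) and 2 fell. Those of smallest p make or recycle glutathione, the cofactor of the GST enzymes. Gclc, the catalytic subunit of the rate-limiting ligase of glutathione synthesis, had 16.2 to 66.8 CPM in KO crypts and 11 to 16.1 CPM in wild-type crypts (log2 fold change 1.59 ± 0.32, adjusted p = 0.00532, edgeR). Gss, glutathione synthetase, had a log2 fold change of 1.23 ± 0.25 and Gsr, glutathione reductase, one of 0.95 ± 0.19 (adjusted p = 0.00507 and 0.0046, edgeR). Of 16 NRF2 target genes outside the families 7 rose (43.8%) and 1 fell. Txnrd1, thioredoxin reductase, had 127 to 204 CPM in KO crypts and 75.8 to 96.1 CPM in wild-type crypts (log2 fold change 0.90 ± 0.13, adjusted p = 0.00144, edgeR). Ftl1, ferritin light chain, and Cbr3, a carbonyl reductase, rose without overlap, with log2 fold changes of 1.26 ± 0.23 and 3.64 ± 0.69 (adjusted p = 0.0035 and 0.00405, edgeR).

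Of 36 other drug and alcohol modifying enzymes 11 fell (30.6%, against 10.5% of all genes) and 1 rose. Fmo1 and Fmo4, flavin monooxygenases, fell with log2 fold changes of -2.29 ± 0.34 and -1.18 ± 0.20 (adjusted p = 0.00159 and 0.00229, edgeR). The gene that rose was Akr1b8, an aldo-keto reductase, with 76.6 to 410.2 CPM in KO crypts and 11.3 to 38.6 CPM in wild-type crypts (log2 fold change 3.32 ± 0.54, adjusted p = 0.00271, edgeR). Of 20 transporters 2 rose and 4 fell (30% called, near the 24.5% of all genes). Abcc4, an exporter of conjugates, rose (log2 fold change 2.78 ± 0.56, adjusted p = 0.00538, edgeR), and Abcc6 and Abcg2, an apical exporter of drugs and sulfates, fell (log2 fold changes -1.50 ± 0.34 and -1.29 ± 0.30, adjusted p = 0.00846 and 0.00871, edgeR). The median log2 fold changes of the lists were -0.16 for regulators, 0.23 for cofactor supply, 0.43 for NRF2 targets, -1.16 for other enzymes and -0.40 for transporters, against 0.05 over all genes. In the full comparison 21 of 121 genes of these lists rose and 22 fell, where 14% of all genes rose and 10.5% fell. Without the 3 KO libraries 6 rose and 13 fell, where 5.46% of all genes tested were called and 2.74% were called lower. Gsr, Txnrd1, Ftl1, Akr1b8, Mafg, Fmo1, Fmo4 and Abcg2 passed, and Gss, Gclc, Cbr3, Abcc4, Abcc6, Hnf4g and Nr5a2 did not (adjusted p of 0.0636, 0.0734, 0.0558, 0.0642, 0.0709, 0.102 and 0.0776, edgeR).

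In spheroids no enzyme gene passed the test. Of 68 genes tested 0 were called by edgeR, where 0.232% of all 15915 genes tested were called. DESeq2 called 4, all lower, a count given without the share of all genes that it called. At an unadjusted p under 0.05 there were 16, all lower (23.5% of 68), against 7.27% of all genes at such a p and lower. The log2 fold change was below 0 in 57 of 68 genes (83.8%), against 50.4% of all genes, with a median of -0.31 against -0.002. All 23 glutathione transferases tested were below 0, the 4 GSTA genes included. These values lean on wild-type replicate 1: without it the median was -0.10, over 70 genes tested. The levels of the families summed to 3143 to 3705 CPM in the 4 KO libraries, against 5453 CPM in this replicate and 3495 to 4056 CPM in the other 3 wild-type libraries.

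In 5 spheroid genes every KO library was below every wild-type library (7.35% of 68), against 4.02% of all genes. Cyp2w1, an orphan P450 of the gut, had 2.90, 2.07, 2.95 and 3.06 CPM in KO spheroids and 7.88, 4.94, 5.91 and 4.50 CPM in wild-type spheroids, with a log2 fold change of -1.08 ± 0.20 (adjusted p = 0.0749, edgeR). Gstm2 had 44.1, 28.5, 41.1 and 41.4 CPM in KO spheroids and 64.5, 57.7, 55.3 and 51.2 CPM in wild-type spheroids (log2 fold change -0.56 ± 0.13, adjusted p = 0.119, edgeR). Gstm4 had 22.0, 16.1, 25.4 and 24.5 CPM in KO spheroids and 39.2, 29.4, 33.4 and 30.2 CPM in wild-type spheroids (log2 fold change -0.58 ± 0.14, adjusted p = 0.133, edgeR). Gstt1 and Mgst2 were the other 2, with log2 fold changes of -0.60 ± 0.18 and -0.40 ± 0.12 (adjusted p = 0.177 and 0.187, edgeR). In each of the 5 the highest value was that of wild-type replicate 1. Without it their log2 fold changes were -0.90 for Cyp2w1, -0.50 for Gstm2, -0.49 for Gstm4, -0.42 for Gstt1 and -0.28 for Mgst2 (adjusted p of 0.171 to 0.333, edgeR). Cyp2u1, the gene next in p, overlapped between the groups (log2 fold change -0.99 ± 0.31, adjusted p = 0.2, edgeR).

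The most abundant enzymes of spheroids were glutathione transferases. Per kilobase of exon Gsta4 was first in both groups, at a mean of 388 CPM per kb in KO and 458 CPM per kb in wild type, and Gsta1 had 290.2 CPM per kb in KO and 356 CPM per kb in wild type. Gsta1 had 316, 292, 277 and 225 CPM in KO spheroids and 528, 323, 284 and 228 CPM in wild-type spheroids (log2 fold change -0.30 ± 0.24, adjusted p = 0.613, edgeR). Only 3 of 9 CYP3 genes and 15 of 49 CYP2 genes passed the filter in spheroids, against 8 and 24 in crypts. In the 5 lists of regulators, cofactor supply, NRF2 targets, other enzymes and transporters no gene was called in spheroids by edgeR. DESeq2 called 6, all lower, again given without the share of all genes that it called. At an unadjusted p under 0.05, in either direction, there were 17. In the order given these were 6 of 25, 1 of 23, 1 of 16, 7 of 34 and 2 of 18. Over all genes tested 2325 of 15915 had such a p.

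The difference between crypts and spheroids was tested as an interaction over both mouse tables. Of 102 enzyme genes tested 2 differed (1.96%), against 2.86% of all 18485 genes. Cyp2j9 fell further in crypts than in spheroids, where it had a log2 fold change of -0.14, with a difference of -2.05 ± 0.45 (adjusted p = 0.0225, edgeR). Cyp2f2, a naphthalene-oxidising P450, gave a difference of -4.54 ± 1.18 (adjusted p = 0.0423, edgeR), but its highest level in any library of either table was 0.651 CPM, and it did not pass the filter in either table alone. Without the 3 KO crypt libraries that stand apart 0 of 102 enzyme genes differed by edgeR (10 at an unadjusted p under 0.05), with a difference of -1.58 ± 0.37 for Cyp2j9 (adjusted p = 0.0552, edgeR). For Gsta1 to Gsta4 the differences were 2.16 ± 0.71, 2.44 ± 0.77, 2.11 ± 0.62 and 1.93 ± 0.65, with adjusted p of 0.096, 0.0836, 0.068 and 0.0997 (edgeR), so a difference between crypts and spheroids was not shown for them. Of the 35 genes that fell in crypts 22 were tested in spheroids and all 22 were below 0 there. Of all 68 enzyme genes tested in spheroids 57 were below 0 (83.8%), against 50.4% of all genes. The spheroid values lean on wild-type replicate 1, as given above. Of the 6 genes that rose in crypts 1, Sult4a1, was above 0 in spheroids.

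**Figure D4:**
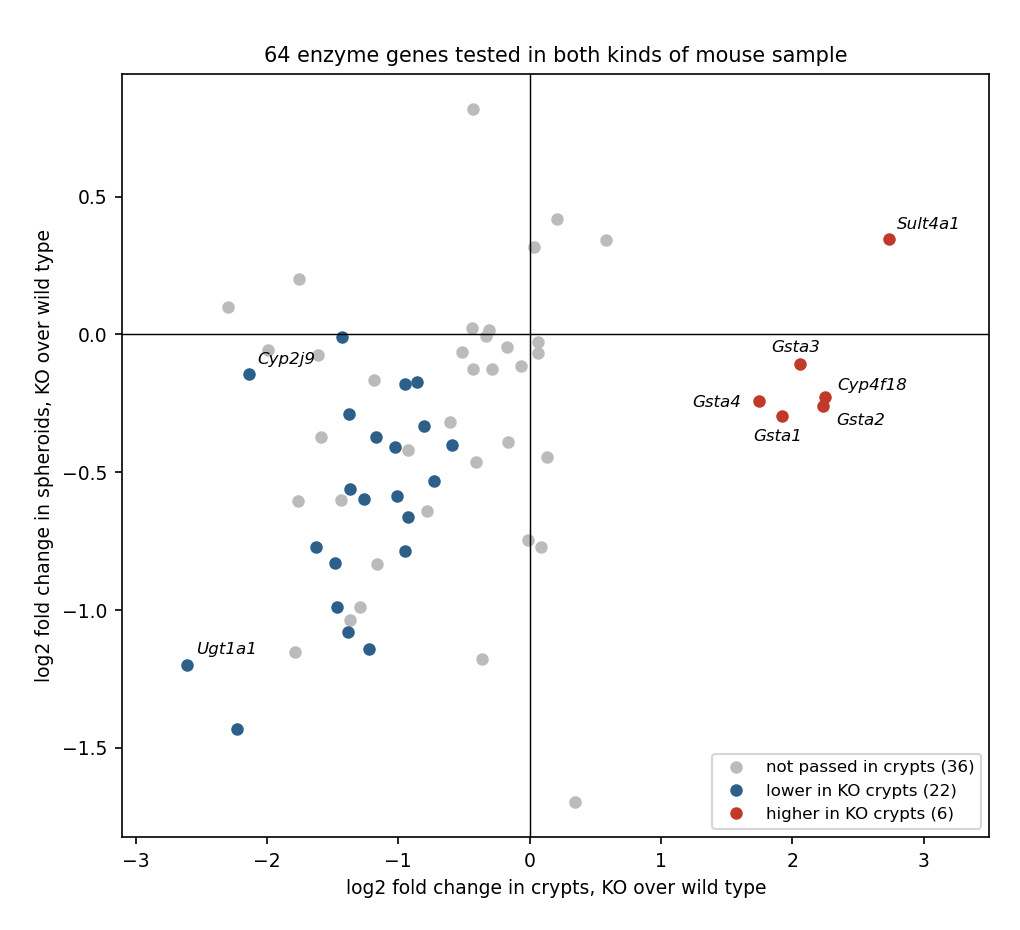
Log2 fold change in spheroids against log2 fold change in crypts, both KO over wild type, for the 64 enzyme genes tested in both. Genes lower in KO crypts (blue, 22) lie below 0 in spheroids, where 83.8% of all 68 enzyme genes tested were below 0. Gsta1 to Gsta4 lie at about -0.1 to -0.3 in spheroids.

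In Caco-2 cells more of the enzyme genes that passed the test were lower than higher after knockdown. Of 44 genes tested 18 fell (40.9%) and 3 rose (6.82%), together 21 (47.7%), where over all 18905 genes tested 16.2% fell, 15.7% rose and 31.9% changed. The median log2 fold change was -0.20, against -0.01 over all genes. In 17 genes (38.6% of 44) every shFgfr1op sample was below every scramble sample, against 21.5% of all genes, and in 4 (9.09%) every one was above, against 20.8%. The summed level of the families was 1810 to 1876 CPM in shFgfr1op cells and 2028 to 2052 CPM in scramble cells.

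Of the alpha-class glutathione transferases, which were higher in KO crypts, 3 of 4 tested fell in knockdown Caco-2 cells. GSTA1 had 97.1, 92 and 108 CPM in shFgfr1op cells and 159, 164 and 159.8 CPM in scramble cells, a log2 fold change of -0.70 ± 0.04 (adjusted p = 9.08e-16, edgeR). GSTA2 had 98.7, 90.0 and 104 CPM in shFgfr1op cells and 134, 138 and 134 CPM in scramble cells, a log2 fold change of -0.47 ± 0.04 (adjusted p = 2.18e-12, edgeR). GSTA5 had 1.02, 1.13 and 1.04 CPM in shFgfr1op cells and 1.90, 2.07 and 2.17 CPM in scramble cells, a log2 fold change of -0.94 ± 0.24 (adjusted p = 0.00176, edgeR). These 3 are close copies of one another and may share reads. The remaining GSTA gene tested did not pass. In each of the 3, all shFgfr1op samples lay below all scramble samples. GSTP1 overlapped between the groups, with 999, 1062 and 984 CPM in shFgfr1op cells and 1019.6, 986 and 1006 CPM in scramble cells (log2 fold change 0.02 ± 0.03, adjusted p = 0.737, edgeR).

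The other transferases that fell were GSTK1, a mitochondrial and peroxisomal enzyme, with 96.0, 95.3 and 104 CPM in shFgfr1op cells and 127, 124 and 120.5 CPM in scramble cells (log2 fold change -0.33 ± 0.04, adjusted p = 2.86e-09, edgeR), and GSTO1, an omega-class enzyme with thiol transferase activity (-0.27 ± 0.04, adjusted p = 8.47e-07, edgeR). MGST3 and MGST1, membrane-bound enzymes, fell by 0.29 and 0.14 on the log2 scale (adjusted p = 1.27e-06 and 0.00848, edgeR). GSTM4 fell by 0.34 on the log2 scale (adjusted p = 2.4e-06, edgeR), while GSTM3 did not pass (0.02 ± 0.06, adjusted p = 0.852, edgeR).

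Of the P450 genes 5 fell and 2 rose of 15 tested. CYP2S1 had 50.7, 51.4 and 49.0 CPM in shFgfr1op cells and 73.4, 70.8 and 66.9 CPM in scramble cells (log2 fold change -0.48 ± 0.05, adjusted p = 1.25e-11, edgeR), and its mouse counterpart fell in KO crypts. CYP4F3, a leukotriene hydroxylase, had 1.84, 1.45 and 2.44 CPM in shFgfr1op cells and 3.97, 5.14 and 4.94 CPM in scramble cells (log2 fold change -1.29 ± 0.18, adjusted p = 1.77e-07, edgeR). CYP4X1 and CYP4F12 also fell, with log2 fold changes of -0.79 ± 0.13 and -2.34 ± 0.61 (adjusted p = 5.58e-06 and 0.00224, edgeR), the second at no more than 0.59 CPM in any sample. CYP3A5, which shares many drug substrates with CYP3A4, fell by 0.34 on the log2 scale (adjusted p = 0.00953, edgeR), with overlap between the groups.

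CYP1A1, the AHR target that oxidises polycyclic aromatic compounds, rose. It had 12.4, 14.9 and 12.8 CPM in shFgfr1op cells and 10.4, 8.75 and 10.6 CPM in scramble cells (log2 fold change 0.43 ± 0.10, adjusted p = 0.000389, edgeR). AHR itself had 55.8 to 60.4 CPM in shFgfr1op cells and 48.8 to 51.5 CPM in scramble cells (log2 fold change 0.21 ± 0.05, adjusted p = 0.000523, edgeR; named after its values were seen). CYP2U1, a fatty acid hydroxylase, had 2.49, 2.06 and 2.12 CPM in shFgfr1op cells and 1.37, 1.28 and 1.17 CPM in scramble cells (log2 fold change 0.81 ± 0.23, adjusted p = 0.00503, edgeR).

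Among 8 sulfotransferases 4 fell and 1 rose. SULT1B1 had 1.99, 1.56 and 1.76 CPM in shFgfr1op cells and 5.41, 4.86 and 6.44 CPM in scramble cells (log2 fold change -1.65 ± 0.17, adjusted p = 8.06e-11, edgeR). SULT1C2 had 3.67, 4.36 and 5.43 CPM in shFgfr1op cells and 7.72, 8.15 and 7.79 CPM in scramble cells (log2 fold change -0.81 ± 0.13, adjusted p = 2.08e-06, edgeR). SULT1E1, the estrogen sulfotransferase, fell at levels of at most 1.69 CPM (adjusted p = 0.0093, edgeR), and SULT1A1 fell by 0.21 on the log2 scale (adjusted p = 0.0284, edgeR), not by DESeq2. SULT2B1, which sulfates cholesterol, rose, with 3.67, 3.27 and 2.87 CPM in shFgfr1op cells and 1.98, 2.11 and 2.30 CPM in scramble cells (log2 fold change 0.61 ± 0.19, adjusted p = 0.00845, edgeR). Most UGT genes were low in Caco-2, where 4 of 19 were tested. The highest were UGT1A6, at 13.8 to 17.7 CPM over all samples, and UGT2A3, at 7.89 to 10.2 CPM. UGT1A6 fell by 0.23 on the log2 scale (adjusted p = 0.0267, edgeR), again not by DESeq2.

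**Figure D5:**
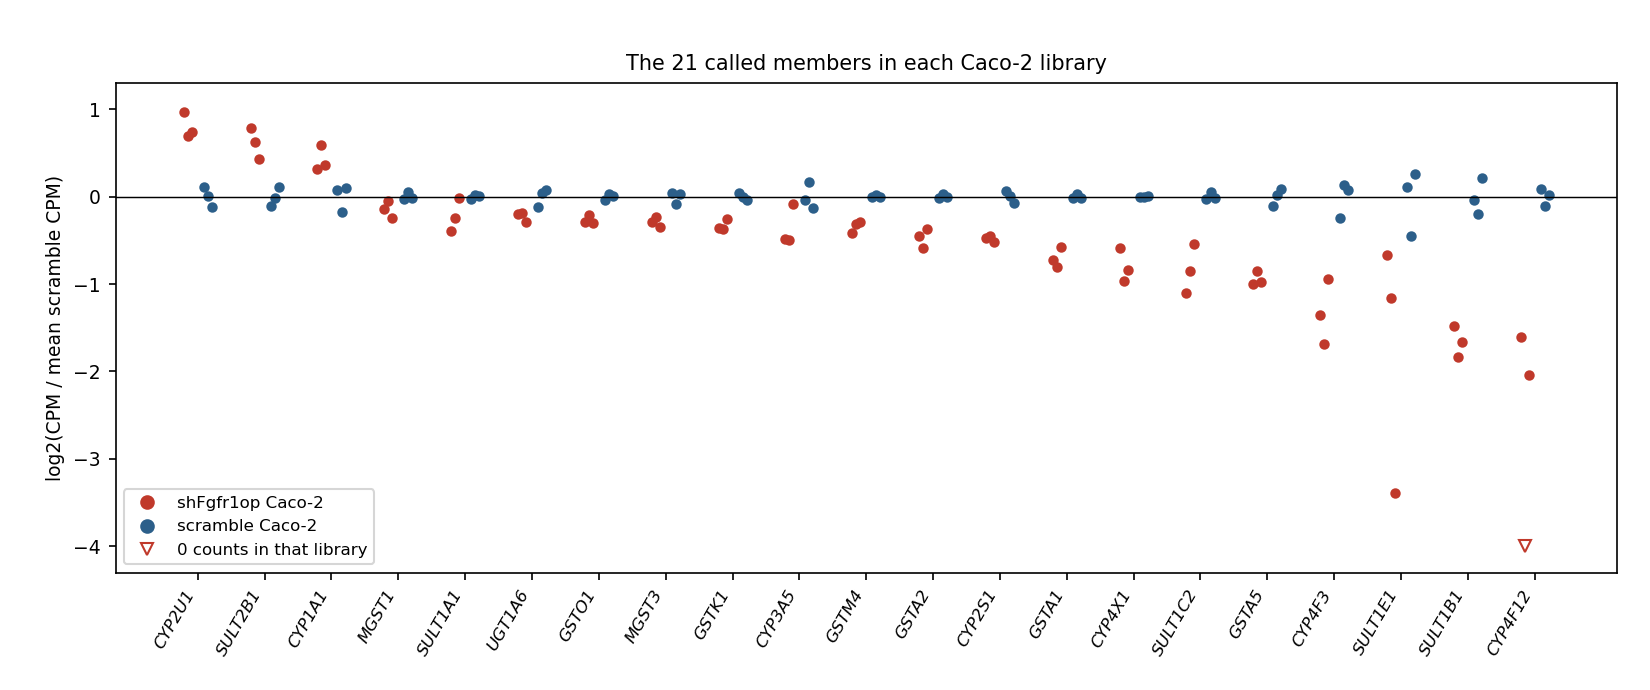
CPM of the 21 called enzyme genes in each Caco-2 sample, as log2 of the ratio to the mean of the scramble samples, shFgfr1op left and scramble right for each gene. In CYP2U1, SULT2B1 and CYP1A1 all 3 shFgfr1op samples lie above the scramble samples, and CYP4F12 has no count in 1 shFgfr1op sample (open triangle).

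The lists of regulators, suppliers and transporters changed in both directions in Caco-2, with more genes called lower than higher in each. In the order below, 44%, 39.1%, 31.2%, 34.8% and 47.4% of the tested genes fell, against 16.2% of all genes. The shares that rose were 16%, 13%, 18.8%, 21.7% and 15.8%, against 15.7% of all genes. Of 25 sensors and regulators 11 fell and 4 rose, led by CEBPA, CDX2 and NR5A2, transcription factors of gut and liver epithelium, with log2 fold changes of -0.62 ± 0.04, -0.91 ± 0.05 and -0.68 ± 0.06 (adjusted p = 9.62e-19, 2.88e-13 and 1.14e-12, edgeR). Of 23 electron and cofactor genes 9 fell and 3 rose. The sulfate transporter SLC26A2, the glutathione-cleaving GGT1 and the pentose phosphate enzyme TKT had the smallest p, with log2 fold changes of -0.73 ± 0.04, -0.75 ± 0.06 and -0.29 ± 0.03 (adjusted p = 1.05e-20, 2.85e-14 and 1.13e-10, edgeR). Of 16 NRF2 target genes 5 fell and 3 rose, where FTL fell by 0.23, NQO1 fell by 0.19 and TXN rose by 0.25 on the log2 scale (adjusted p = 1.56e-09, 1.94e-06 and 4.86e-08, edgeR). Of 23 other enzymes 8 fell and 5 rose, led by EPHX2, ALDH1A1 and CES1, and of 19 transporters 9 fell and 3 rose, led by SLCO2B1, ABCC2 and SLC51B, all lower. The median log2 fold changes of the lists were -0.22, -0.05, -0.12, -0.22 and -0.36 in the order given, against -0.01 over all genes.

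Markers of differentiation moved in Caco-2 as well. The enterocyte list summed to 1695 to 1812 CPM in shFgfr1op cells and 2751 to 2797 CPM in scramble cells, with 11 of 13 genes tested lower and 1 higher. The hepatocyte list summed to 846 to 962 CPM in shFgfr1op cells and 2003 to 2091 CPM in scramble cells, with 6 of 6 lower. The stem cell list summed to 366 to 382 CPM in shFgfr1op cells and 272 to 279 CPM in scramble cells, with 6 of 7 higher. Of the goblet cell genes tested 3 of 4 were lower, and of the tuft cell genes 2 of 2. Over all Caco-2 genes tested 16.2% were lower and 15.7% higher. The part of these shifts in the enzyme differences was not tested.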

How the data were processed

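RNA sequencing of 26 samples of 3 kinds was deposited as 1 table of read counts per gene for each kind. STAR, DESeq2 and build mm10 are named, with no role, in the submitters' processing notes, while the Caco-2 table holds human Ensembl IDs. The counts were used as the authors deposited them, after removal of repeated IDs with identical counts (276 in each mouse table and 116 in the Caco-2 table). Columns were matched to samples by their names, and crypt columns to groups only.

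Genes passing filterByExpr were fitted with edgeR 4.0.16 (glmQLFit and glmQLFTest, robust, TMM scaling) in R 4.3.3, and p-values were adjusted by Benjamini-Hochberg over all genes tested. A gene was called at an adjusted p below 0.05. The SE is the absolute log2 fold change divided by the root of the F statistic. The difference between crypts and spheroids was fitted as an interaction, in which kind of sample and table cannot be told apart. Exon lengths come from the reference annotation. DESeq2 1.42.0, limma 3.58.1 with voom and sample weights, other scalings and filters, a replicate block and leaving out each library were the alternatives. The code was tested on simulated data.

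Named were Fgfr1op, the called enzyme genes (the 24 of smallest p where more were called, the 6 of smallest p where fewer than 6 were), the 2 highest per family, and up to 3 called genes per list. Members and lists were chosen with earlier results of these data known. Replicate numbers did not pair the spheroid or Caco-2 samples, nor did the numbers in the crypt column names pair those libraries, and no pair of replicates agreed within sampling noise (chi-square per degree of freedom of 3.98 or more).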

Additional observations from a re-analysis of the deposited data

Results flagged for a closer look

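In 8 of 134 groups examined, 1 library lay far from the others of its group, where chance gives about 1 in 20. In spheroids, Cyp2w1 was lowest in KO replicate 2 (2.074 CPM, nearest 2.90 CPM), Cyp3a13 was highest in KO replicate 3 (31.14 CPM, nearest 20.3 CPM) and Cyp2c55 was highest in wild-type replicate 1 (76.1 CPM, nearest 23.9 CPM). In crypts, KO library c was highest for Cyp2e1 (1.571 CPM, nearest 0.535 CPM) and for Cyp1a1 (0.9522 CPM, nearest 0.268 CPM). Among wild-type crypts, library d was highest for Ugt1a6a (5.32 CPM, nearest 3.77 CPM), library c for Cyp2s1 (73.57 CPM, nearest 55.0 CPM) and library a for Gsto1 (299.5 CPM, nearest 251 CPM).

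The KO effect differed between crypts and spheroids for Cyp2j9, by -2.0479 on the log2 scale, and for Cyp2f2, by -4.5437, in the interaction test of edgeR. The second rests on low counts.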

How the results depend on the processing

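In crypts, 41 enzyme genes were called (44.1% of those tested, against 24.5% of all genes). Without the 3 KO libraries that stand apart, a choice made after seeing the data, 11 were called (11.2%, against 5.46% of all genes). There were 25 with no filter on low counts and 71 by limma voom with sample weights. Where the share of all genes called in the same fit is not given, a count here says nothing particular to the enzyme genes. Leaving out 1 library gave 24 to 54, with 21 of the 41 called in all 12 fits. The 24 came without wild-type library e, and all 41 were called by DESeq2 and by voom. The pathway lists gave 43 calls in crypts, 83 by voom, 19 without the 3 libraries, and 33 to 58 with 1 library left out. In spheroids 0 enzyme genes were called by edgeR, 1 with no filter and 4 by DESeq2, and 0 without any 1 library. The spheroid lists gave 0 calls, 1 with no filter, 6 by DESeq2, 1 with the replicate block and 0 without any 1 library. The Caco-2 count of 21 became 17 to 20 and its list count 57 to 62 without 1 sample. The 2 genes that differed between crypts and spheroids became 1 with no filter, 1 with at least 1 CPM, 0 without the 3 KO crypt libraries and 0 to 6 without 1 library.

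With a replicate block, 0 enzyme genes were called in spheroids and 21 in Caco-2. Same-numbered samples correlated at -0.03 to 0.10 in spheroids and 0.00 to 0.04 in Caco-2, so the numbers were not taken as pairs. The crypt columns carry running numbers 1 to 6 in both genotypes, which the labels do not give. Same-numbered crypt libraries correlated at -0.07 to 0.11, so these were not taken as pairs either. With the column number as a block, a choice made after seeing the data, 33 of 93 enzyme genes (1 higher, 32 lower) were called in crypts. In the same fit 41 of 121 list genes were called, and 2732 of all 16413 genes tested. Of the named crypt genes 7 then failed the test, Gsta1, Gsta2 and Gsta4 among them, 1 newly passed and Gstm1 turned to 0.0307.

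Log2 fold changes of genes that failed the test changed sign. Without the 3 libraries, Gstm3 was 0.3069, Gstm1 0.3311, Gstp1 -0.056 and Cyp3a13 -0.0554 in crypts. By voom, Sult2b1 was 0.0462 in spheroids, UGT1A1 -0.5449 and CYP4V2 -0.007 in Caco-2, where CYP4V2 was -0.0015 with no filter. Without 1 library, spheroid values ran from -0.9951 to 0.6808 for Cyp3a25, -0.086 to 0.0861 for Sult2b1, -0.1607 to 0.0639 for Cyp1b1 and -1.0644 to 0.1299 for Cyp4f14. Crypt values ran from -0.2855 to 0.1369 for Gstm1, -0.1534 to 0.1415 for Cyp3a13, -0.1368 to 0.313 for Cyp4f14 and -0.021 to 0.1427 for Gstp1. Caco-2 values ran from -0.0877 to 0.1191 for UGT2B7, -0.0145 to 0.0434 for GSTP1, -0.0213 to 0.0621 for GSTM3, -0.3585 to 0.5265 for UGT1A1 and -0.1094 to 0.1065 for CYP4V2. The cause of these changes was not tested. Genes such as Cyp4a10 and Cyp2f2 had few counts, which makes their values uncertain.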
